A study of Mus musculus with 4 samples.

Results

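Known exon-exon junctions that cross a very short intron were described in thymocytes of hnRNP L knockout (KO) and wild-type (WT) mice. A junction was taken when its annotated end lay 100 nt or less beyond its start and when the 4 libraries together gave it at least 10 reads. Of 186874 known junctions, 5805 met both conditions, in 2696 genes, against 88090 longer known junctions with at least 10 reads. The members were thus chosen by annotated length and by summed reads, and their level is given as a description.

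Total RNA of thymocytes, the developing T cells of the thymus, was sequenced on the SOLiD platform after depletion of ribosomal RNA. There were 2 hnRNP L KO mice and 2 wild-type mice, with 1 library per mouse as the titles number them. All 4 mice have the same labelled background, CD45.1 and mixed C57BL/6, LckCre transgenic in WT as in KO, with the reporter allele Gt(ROSA)26Sortm4(ACTB-tdTomato,-EGFP)Luo. Lck regulatory sequence drives Cre in T lineage cells. The sources used here do not give the ages and sexes of the mice or the exons of Hnrnpl that were removed. Because total thymocytes were used, fewer cells of a type and less RNA per cell cannot be told apart.

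Introns are removed by the spliceosome, which recognises the donor site at the 5′ end, a branch point and the acceptor site at the 3′ end. In mammals most introns are long and the splice sites are thought to be paired first across the exon. Across a very short intron the sites can be paired directly over the intron, and such introns are often rich in G and C, with runs of G that are bound by hnRNP F and hnRNP H proteins. HnRNP L binds CA-rich RNA and can repress or promote the use of nearby splice sites.

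The introns were short but not minimal. Start and end of a junction are the last base of 1 exon and the first base of the next, so that an intron is 1 nt shorter than end minus start. The median end minus start was 87 nt, with quartiles of 81 and 92 nt. Of the members, 50 spanned 50 to 69 nt, 1026 spanned 70 to 79 nt, 2585 spanned 80 to 89 nt and 2141 spanned 90 to 100 nt. Only 2 junctions fell in the 5 nt bin that starts at 61 nt, against 848 in the bin that starts at 76 nt and 1350 in the bin that starts at 86 nt, where the distribution of all known junctions up to 300 nt peaked. The decline past the peak ran on through the limit of the rule, with 835 junctions in its last bin of 5 nt and 730 in the bin after it.

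**Figure D1:**
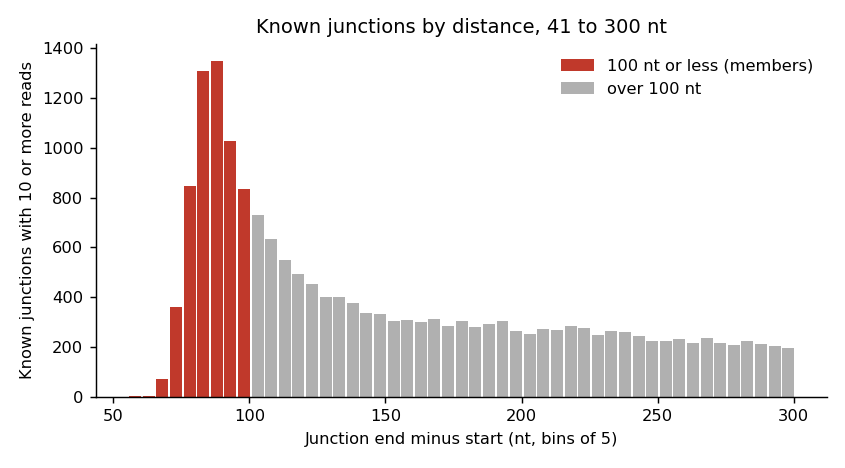
Number of known junctions whose reads sum to at least 10, by end minus start in bins of 5 nt up to 300 nt. Red bars are the members and grey bars the longer junctions; the peak of 1350 junctions lies at 86 to 90 nt.

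The shortest 3 members are not ordinary introns. A junction of Gm10391_dup1 (mm9, chr14:26802597-26802608), a predicted gene, spanned 11 nt and held 25 and 26 reads in KO, against 20 and 76 in WT. Junctions of Gm13363 and A130040M12Rik spanned 12 and 17 nt. None of these 3 matched an intron of the GENCODE M21 annotation, whereas 99.5% of all members did. Among the rest the shortest belonged to Hnrnph1, which encodes a protein that binds G runs. It joins exon 8 to exon 9 over an intron of 56 nt (mm9, chr11:50196373-50196430) and had 30.9 and 29.1 junction CPM, that is reads scaled by the library's known junction reads, in KO, against 19.4 and 25.2 in WT, where the groups did not overlap (use relative to the gene, log2 0.40, SE 0.33, edgeR adjusted p = 1.00). Next came Gcdh, a dehydrogenase of lysine breakdown, with an intron of 57 nt, then Adck5, Inpp5e and Rnf126 with introns of 63, 64 and 65 nt.

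Sequences are shown to let the build of such introns be seen. They were read from GENCODE M21 transcripts of build GRCm38 that keep the intron within an exon, which gave a sequence for 1228 members, or 21.2%. Of those, 1221 began with GT and ended with AG and 7 began with GC. Each intron is written on its own strand with the first and last 2 bases in capitals, and all lie between coding exon ends. The first 3 are those of the 5 shortest members of 50 nt or more that could be read between coding exon ends, Adck5 (chr15:76594611-76594673), Inpp5e (chr2:26399349-26399412, minus strand) and Rnf126 (chr10:79761500-79761564, minus strand). The other 3 lie next to each other in Lat, an adaptor of the T cell receptor (chr7:126368216-126368298, chr7:126368107-126368185 and chr7:126367971-126368045, minus strand, in the order of transcription).
Adck5: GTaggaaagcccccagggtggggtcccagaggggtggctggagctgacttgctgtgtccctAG
Inpp5e: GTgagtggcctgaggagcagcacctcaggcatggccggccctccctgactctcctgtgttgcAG
Rnf126: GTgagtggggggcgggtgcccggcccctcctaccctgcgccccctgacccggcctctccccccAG
Lat intron 5: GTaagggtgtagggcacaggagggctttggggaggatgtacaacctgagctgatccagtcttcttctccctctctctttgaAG
Lat intron 6: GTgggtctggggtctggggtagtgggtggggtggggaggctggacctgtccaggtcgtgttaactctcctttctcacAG
Lat intron 7: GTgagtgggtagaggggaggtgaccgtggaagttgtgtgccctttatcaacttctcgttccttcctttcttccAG

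G and C made up 65.1%, 65.6% and 80% of the introns of Adck5, Inpp5e and Rnf126. In Lat the 3 introns held 53.0%, 62.0% and 52.0%, in the same order as printed. Over the 1228 members that could be read the median was 57%, against 54.3% for 1245 introns of junctions spanning over 100 and up to 200 nt, 49.3% for 2446 spanning over 200 and up to 1000 nt and 43.2% for 1049 spanning over 1000 nt. The letters GGG stood in the first 60 nt of 74.4% of the members' introns, against 75.2%, 62.0% and 51.4% in those 3 classes, searched on the transcribed strand alone. CACA stood in 17.7% of the same windows, against 16.4%, 19.3% and 17.5%. None of these differences was tested. Introns that an annotated transcript keeps are not a random sample of all introns, and only 5.38% of the longer ones could be read.

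Where no transcript keeps the intron, the joined exon ends can be shown, with 20 bases of each exon and the 2 bases on each side of the joint in capitals. They are given for the shortest annotated intron (Hnrnph1, exons 8 and 9, intron chr11:50382872-50382927), for the short intron of the deleted gene itself (Hnrnpl, exons 6 and 7, intron chr7:28815196-28815279), for the member of a T cell gene with the most reads (Coro1a, exons 3 and 4, intron chr7:126701920-126702005, minus strand) and for the member with the most reads of all (Actb, exons 4 and 5, intron chr5:142904249-142904343, minus strand), all in GRCm38.
Hnrnph1: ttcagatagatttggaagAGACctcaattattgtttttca
Hnrnpl: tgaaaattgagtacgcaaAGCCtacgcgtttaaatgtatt
Coro1a: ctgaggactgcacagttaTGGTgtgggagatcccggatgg
Actb: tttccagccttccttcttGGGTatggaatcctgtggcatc

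Short introns were seldom the first of their transcripts. In transcripts with at least 3 introns, 150 of 5755 members, or 2.61%, were the first intron, against 7018 of 86366 longer ones, or 8.13%. The median relative position was 0.6 for members and 0.5 for the others, on a scale on which 0 is the first intron and 1 the last. Both exon ends were coding for 98.8% of the matched members and 95.1% of the others. An intron length that is a multiple of 3 nt was found in 32.6% of the members of 50 nt or more and in 33.4% of the longer junctions. The share of known junctions with at least 10 reads that were members ranged by chromosome between 2.56% on chromosome 13 and 10.5% on chromosome 17.

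Most genes with a short intron had few of them. A single member was found in 1511 of the 2696 genes, 648 genes held at least 3 and 42 held at least 10. Cpsf1, the largest subunit of the factor that cleaves transcripts at the poly(A) signal, held 27 members among 35 known junctions with at least 10 reads. Flna, an actin crosslinker, held 20 of 45, and Sbf1, a pseudophosphatase, held 20 of 40. In 47 genes every known junction with at least 10 reads was a member. The rule's minimum of reads favours expressed genes, but the other genes compared here had to meet it too. What it contributes to the difference in level was not tested. Genes with members had a median of 8.38 and 8.5 RPKM in KO and 8.05 and 8.65 RPKM in WT, whereas the other genes with a known junction of at least 10 reads had 5.32 and 5.37 RPKM in KO and 5.11 and 5.47 RPKM in WT.

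Libraries differed in depth, with 3263881 and 3474333 reads on known junctions in KO and 4704468 and 6075495 in WT. Members took 7.62% and 7.73% of those reads in KO and 7.85% and 7.61% in WT, so the groups overlapped. Members without a read numbered 122 and 75 in KO, against 69 and 26 in WT, in the order of depth. The 10 thymocyte markers summed to 2844 and 2502 RPKM in KO and to 2730 and 2930 RPKM in WT, and the 3 B cell markers to 3.62 and 2.28 RPKM in KO and 2.82 and 3.27 RPKM in WT. Myeloid markers gave 35.0 and 35.6 RPKM in KO and 33.7 and 33.8 RPKM in WT, and stromal ones 3.66 and 6.75 RPKM in KO and 3.71 and 3.58 RPKM in WT, with no listed gene at 0. For red cells, 2 of the 3 listed genes were in the table and summed to 128 and 25.2 RPKM in KO, against 41.3 and 36.7 RPKM in WT. KO replicate 1 was also the library that stood apart in sex-linked genes. Y-linked Ddx3y had 12.8 and 0.00286 RPKM in KO and 0.0367 and 0.00176 RPKM in WT. Xist had 0.179 and 64.6 RPKM in KO and 32.4 and 38.8 RPKM in WT. What these differences contribute to any result below was not tested, unless a value without the library is given.

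Hnrnpl itself has 1 short junction. Its gene level was 467 and 208 gene CPM in KO, against 854 and 813 gene CPM in WT, so KO replicates 1 and 2 kept 56% and 25% of the WT mean (log2 fold change -1.30, SE 0.42, edgeR adjusted p = 0.486). The junction of exons 6 and 7, counted in a GENCODE transcript of 14 exons (mm9, chr7:29600214-29600299, 85 nt) held 114 and 41 reads in KO, against 314 and 379 in WT. Scaled by depth this was 34.9 and 11.5 junction CPM in KO and 70.02 and 62.9 in WT, with no overlap. Its fold change did not pass over all junctions (log2 -1.53, SE 0.34, adjusted p = 0.579), and it was past the threshold in 5 of the alternative fits. Relative to the other Hnrnpl junctions it stood at -0.17 on the log2 scale (SE 0.77, adjusted p = 1.00), that is, it was low along with the gene. A putative junction that joins the exon end at 29596187 to the exon starting at 29603480, across the short intron, held 2 and 5 reads in KO and 0 and 0 in WT. Too few reads fell on it to be tested.

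How well a short junction was covered was set against its own gene, as the log2 ratio of its reads to the median reads of the other known junctions. The median over 5767 members was 0.00 and 0.00 in KO and 0.00 and 0.03 in WT, and 0.00 in every library for 87101 longer junctions. By this measure a typical short junction was read about as often as the others of its gene. In 1185 of the 2696 genes with members the others included further short junctions. Short junctions were therefore not set against longer ones alone. Members and the others also both had to reach the minimum of reads. Junctions of 50 to 69 nt lay lower, at -0.39 and -0.46 in KO and -0.55 and -0.31 in WT over 50 junctions, as did those over 10000 nt, at -0.12 and -0.14 in KO and -0.11 and -0.16 in WT. How readily a read can be placed over so short a gap was not tested. Where the mean of the other junctions replaced the median, the members' value was -0.28. The members' value was 0.24 without a minimum of reads for the other junctions, with the members' own minimum kept.

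**Figure D2:**
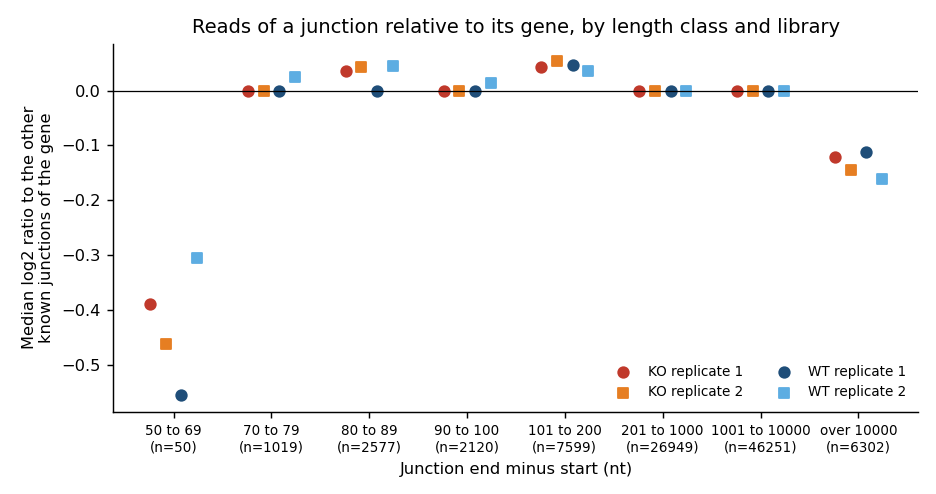
Median log2 ratio of a junction's reads to the median of the other known junctions of its gene, by end minus start in nt, with 1 point per library and the number of junctions in parentheses. Junctions of 50 to 69 nt lie between -0.31 and -0.55 in all 4 libraries, and the other classes up to 10000 nt lie near 0.

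Single members departed far more from their genes. Among 2505 members with at least 100 reads and at least 3 other known junctions, the ratio in WT ran between -3.22 and 5.79. Of them, 10% lay under -0.66 and 10% over 1.96, with a median of 0.61. The minimum of 100 reads was set on the members and not on the other junctions, so it favours high ratios. The 2 tails are therefore not those of short junctions at large. Across the 5767 members the ratios of any pair of libraries correlated at Pearson's r of 0.71 to 0.76, whether the pair was of 1 group or of both. These members share libraries, gene denominators and base composition between the values, so r is a description only. Among the 2505 members, the median absolute difference of a member's ratio was 0.36 between the 2 WT libraries and 0.35 between the 2 KO libraries. Between the means of KO and WT it was 0.23. Means of 2 libraries vary less than single libraries, so the last value cannot be set directly against the other 2.

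At the low end stood Hnrnpk, which encodes another hnRNP protein. Its junction of 79 nt (mm9, chr13:58495135-58495214) held 26 and 34 reads in KO and 33 and 61 in WT, at ratios of -3.30 and -3.09 in KO and -3.42 and -3.01 in WT. Calm3, a calmodulin, had ratios of -2.44 and -2.36 in KO and -2.94 and -3.13 in WT. Rps24 and Rps7, of the small ribosomal subunit, averaged -3.25 and -2.15 in KO and -3.03 and -2.74 in WT. The other of the 5 lowest was in Oaz1, an inhibitor of polyamine synthesis (chr10:80291378-80291456), at -2.86 in KO and -2.85 in WT. At the high end Eif4a2, a translation helicase, had 435 and 379 reads in KO and 576 and 684 in WT, at ratios of 3.39 and 3.44 in KO and 4.17 and 3.91 in WT. Maf1, a repressor of RNA polymerase III, had 192 and 220 reads in KO and 680 and 488 in WT. Hadhb, Gpx4 and Eif5a were the other 3 highest, with mean ratios of 4.37, 3.44 and 5.45 in KO and 4.39, 4.16 and 5.79 in WT. Junctions of Rps24, Rps7 and Eif5a can share reads with processed gene copies elsewhere in the genome, so their counts are uncertain. This was not tested, either for these genes or for the others named.

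The introns behind some of these extremes could be read, and are shown to set introns at both ends of the ratio side by side. Hnrnpk (chr13:58393775-58393852, minus strand) held 24.4% G and C, Eif4a2 (chr16:23108634-23108718) 32.9% and Maf1 (chr15:76353260-76353340) 54.3%, in GRCm38 with capitals at the ends as above. Oaz1 (chr10:80828383-80828460), the most read member of its gene, with a ratio of 2.88 in KO and 3.22 in WT, held 62.8%.
Hnrnpk: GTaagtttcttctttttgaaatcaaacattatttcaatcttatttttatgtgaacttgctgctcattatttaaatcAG
Eif4a2: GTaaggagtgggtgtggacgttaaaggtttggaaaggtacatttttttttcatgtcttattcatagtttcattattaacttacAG
Maf1: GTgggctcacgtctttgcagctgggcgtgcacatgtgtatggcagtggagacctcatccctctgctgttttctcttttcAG
Oaz1: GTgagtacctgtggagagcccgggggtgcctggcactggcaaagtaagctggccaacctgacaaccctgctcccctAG

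The most read member was the Actb junction shown above (mm9, chr5:143665927-143666023), with 5234 and 5621 reads in KO and 6326 and 9856 in WT. That is 1601 and 1573 junction CPM in KO, against 1411 and 1636 in WT, and the groups overlapped. Coro1a, an actin regulator of lymphocytes, followed among genes particular to blood cells, with 2197 and 1530 reads in KO and 3767 and 3611 in WT (log2 -0.39, SE 0.26, adjusted p = 0.995). Hspa8, a constitutive chaperone, averaged 332 ± 17.5 junction CPM in KO and 628 ± 134 in WT (SD, n = 2 each), the largest shift among the 10 most read members when 1 is taken per gene, and it did not pass (log2 -0.92, SE 0.25, edgeR adjusted p = 0.818). Eif4g2, Eef1a1, Eif5a, Rpl13a, Eef2, Oaz1 and Rpl4 completed these 10, with log2 changes in reads between -0.69 for Oaz1 and 0.06 for Eif5a. Many of these genes have processed copies, so reads may be split between loci, which was not tested.

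Whether loss of hnRNP L changed the use of short introns was asked with edgeR, which compared each junction with the other junctions of its gene. None of the 5769 members tested passed an adjusted p of 0.05, and 4 of all 95139 junctions tested did, or 0.0042%. An unadjusted p under 0.05 was reached by 151 members, or 2.62%, against 2.55% of all junctions. Of these members 87 were higher in KO, or 1.51%, against 1.31% of all junctions, and 64 were lower, or 1.11%, against 1.24%. DESeq2 and limma-voom also called 0 members. The median change was -0.00 on the log2 scale for members and 0.00 for all junctions, and 2872 members lay above 0 and 2897 below. By length, the medians were 0.01 at 50 to 69 nt, 0.02 at 70 to 79 nt, -0.00 at 80 to 89 nt and -0.01 at 90 to 100 nt. The shares lay near the background and no shift of short junctions as a class was seen. With 2 mice per group and a median of 81 reads per member, small changes in single junctions would not be detectable. At few reads large ones did not pass either, such as -3.47 on the log2 scale for a junction of Itga5 with 30 reads. KO replicates 1 and 2 also kept 56% and 25% of the WT mean of Hnrnpl, and what this does to the result was not tested.

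**Figure D3:**
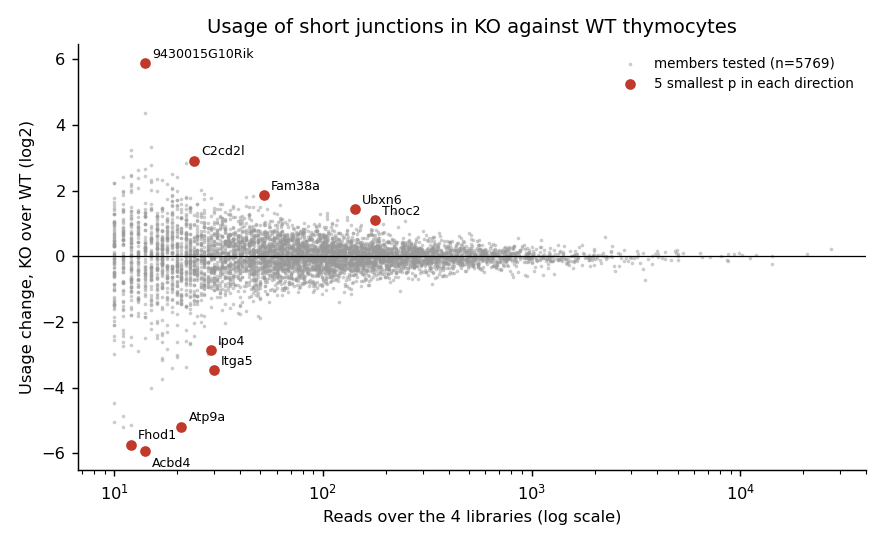
Log2 change in the use of each of the 5769 members tested, KO over WT, against its reads over the 4 libraries on a log scale. Red points mark the 5 members with the smallest unadjusted p in each direction; the spread narrows with reads, and no member passed the adjusted threshold.

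The 5 members with the smallest p in each direction are given as values, since none passed (edgeR adjusted p = 1.00 for each). The highest was in 9430015G10Rik, a gene known by a clone name, where a junction of 91 nt (mm9, chr4:155498110-155498201) held 7 and 7 reads in KO and 0 and 0 in WT. With 3 reads over the group set in place of the 0 in WT, the junction was 7.17-fold higher in KO. That fold takes the KO reads as exact, and the junction met the minimum of 10 reads through KO alone. C2cd2l had 12 and 8 reads in KO against 3 and 1 in WT, and Fam38a, the mechanosensitive channel Piezo1, had 12 and 26 against 4 and 10. Thoc2, a subunit of the complex that couples transcription to mRNA export, had 57 and 45 reads in KO against 33 and 43 in WT, or 15.0 ± 3.43 junction CPM in KO and 7.25 ± 0.157 in WT (SD, n = 2 each). Ubxn6, a cofactor of the ATPase p97, had 58 and 29 reads against 24 and 31. All 5 were higher in both KO libraries than in either WT library once scaled by depth.

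Lower in KO were junctions of 5 genes with few reads. Fhod1, a formin, had 0 and 0 reads in KO against 5 and 7 in WT. With 3 reads over the group set in place of 0, this was 2.60-fold lower in KO. Atp9a, a lipid flippase, had 0 and 0 against 7 and 14, by the same measure 4.56-fold lower. Acbd4, a protein that binds acyl-CoA, had 0 and 0 against 5 and 9, or 3.04-fold lower. These folds take the WT reads as exact, and these junctions met the minimum of reads through WT alone. Itga5, the alpha chain of a fibronectin receptor, had 0 and 1 against 8 and 21, and Ipo4, a nuclear import receptor, had 0 and 2 against 14 and 13. The 2 introns of this group that could be read are shown for their letters, 9430015G10Rik (chr4:156124002-156124091) and Acbd4 (chr11:103104021-103104092), in GRCm38. CACA stood in neither.
9430015G10Rik: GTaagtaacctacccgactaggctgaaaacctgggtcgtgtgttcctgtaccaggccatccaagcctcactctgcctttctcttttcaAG
Acbd4: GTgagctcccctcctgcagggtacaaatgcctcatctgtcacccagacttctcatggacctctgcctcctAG

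**Figure D4:**
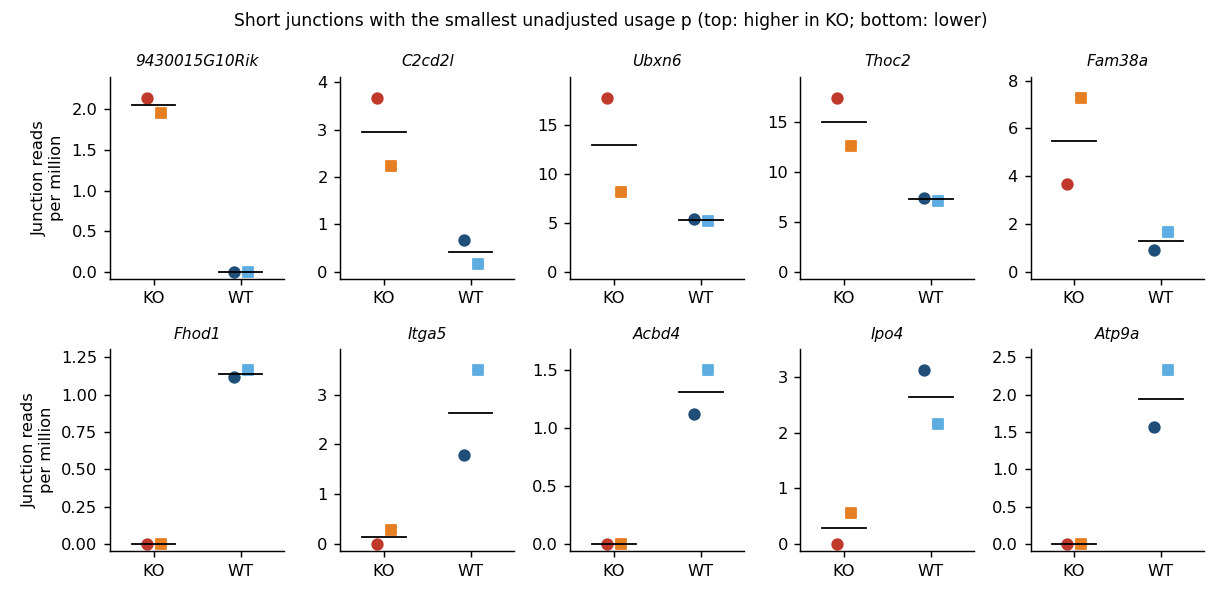
Junction CPM in KO (left) and WT (right) for the 5 members with the smallest unadjusted p in each direction. Circles are replicate 1, squares replicate 2 and bars the mean; the upper row is higher in both KO libraries, and the lower row is at or near 0 in both KO libraries.

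The level of the short junctions themselves, without reference to their gene, gave a like picture. None of the 5805 members passed, and 6 of all 93895 known junctions did, or 0.00639%. An unadjusted p under 0.05 was reached by 282 members, or 4.86%, against 4.9% of all known junctions. Of these, 151 were higher in KO, or 2.6%, against 2.51% of all, and 131 lower, or 2.26%, against 2.39%. The log2 ratio to the other junctions of the gene did not overlap between the groups and was higher in KO for 909 of 5767 members, or 15.8%, against 15.4% of all known junctions, and lower in KO for 975, or 16.9%, against 16.5%. Nor did the genes that hold short introns differ as a group. None of the 2684 tested passed in gene counts, where 1 of 13733 genes did, or 0.00728%, and 264 had an unadjusted p under 0.05, or 9.84%, against 9.9% of all genes. Of these, 172 were higher in KO, or 6.41%, against 6.29% of all, and 92 lower, or 3.43%, against 3.61%. DESeq2 called 18 of these genes and 108 of all genes.

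Several members passed only in some of the alternative fits of junction reads. They are named after their values were seen. Ncapd2, a condensin subunit, has 7 members, of which the junction at mm9 chr6:125121777-125121851 had 58 and 112 reads in KO and 18 and 60 in WT. It was past the threshold in 4 alternative fits, and its use relative to the gene was 1.07 on the log2 scale (SE 0.47, adjusted p = 1.00). The other 6 had changes in use between -0.37 and 0.13. Cirbp, a cold-inducible RNA-binding protein, had 122 and 108 reads in KO and 50 and 100 in WT at chr10:79632661-79632761. Ccar1, a regulator of transcription and cell division, had 140 and 271 reads in KO and 86 and 200 in WT. Both passed in 3 alternative fits. Prelid1, a carrier of mitochondrial lipids, had 506 and 257 reads in KO and 2064 and 676 in WT, and Traf4, a signalling adaptor, had 8 and 11 in KO and 88 and 29 in WT at chr11:77974696-77974789. WT replicate 1 stood apart in both, with 460 junction CPM for Prelid1 and 19.6 for Traf4, against 112 and 4.81 in WT replicate 2. The short junctions of the Y-linked genes Eif2s3y, Kdm5d and Ddx3y held 79 reads, 15 reads and, for the 2 of Ddx3y, 21 and 27 reads in KO replicate 1, and at most 1 read each in the other libraries.

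For use relative to the gene, 1 member passed in 1 alternative fit. Mrpl12, of the mitochondrial ribosome, had 52 and 55 reads in KO and 20 and 92 in WT at chr11:120349548-120349632. Its log2 change was 1.32 (SE 0.48, adjusted p = 1.00) in all 4 libraries, and 2.78 (adjusted p = 0.0358) without WT replicate 2, which leaves WT replicate 1 as the lone WT library.

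Listed T cell genes, most of them named here after their values were seen, held 60 members in 21 of 62 listed genes with a known junction of at least 10 reads. None passed in use. At an unadjusted p under 0.05, 1 of the 60 was higher in KO and 1 lower, beside 1.31% and 1.24% of all junctions. Counts so small cannot be told from those shares. The median was -0.03, beside 0.00 for all junctions. Plcg1, the phospholipase downstream of the T cell receptor, held 11 members with 22 to 700 reads, with changes in use between -0.50 and 0.66. Zap70, the kinase bound to the receptor, held 4, between -0.20 and 0.49. Notch1 and Notch3, receptors of early thymocyte development, held 4 and 6, between -0.34 and 0.29 and between -0.76 and 0.55. Ptpn6, the phosphatase SHP-1, held 4, all of them below 0, between -0.47 and -0.02. Ptprc, which encodes CD45, held 3 with 1616 to 4329 reads, between -0.21 and -0.07.

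In Lat 5 of 11 known junctions with at least 10 reads were short. In the order of transcription they held 375 and 290, 428 and 384, 708 and 635, 647 and 551, and 231 and 214 reads in KO. In WT the same junctions held 602 and 669, 636 and 821, 1094 and 1312, 1020 and 1017, and 293 and 366. Their changes in use lay between -0.10 and 0.27. Introns 5 and 6, printed above, enclose exon 6, which is 30 nt long. A putative junction that leaves this exon out (mm9, chr7:133511620-133511813) held 47 and 36 reads in KO and 62 and 48 in WT. As a share of these reads plus the mean of the 2 junctions of the exon this was 10.5% and 9.65% in KO and 9.10% and 6.05% in WT, or 10.1 ± 0.585% and 7.58 ± 2.16% (SD, n = 2 each). The values did not overlap, and the use of this junction did not pass (log2 0.40, SE 0.35, edgeR adjusted p = 1.00). Lat was singled out after its values were seen, as the exon between short introns with the most skipping reads.

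Exons between short introns were otherwise seldom skipped. Of 1045 exons of 300 nt or less with a member on both sides, 91 had a read that joined the outer ends, or 8.71%, against 879 of 7650 with a member on 1 side, or 11.5%, and 10201 of 65494 with none, or 15.6%. Among those with at least 100 reads on the mean of both junctions, the shares were 10.2% of 500, 13.5% of 3944 and 18.9% of 32064. Skipping of 5% or more was seen in 3 of those 500 exons, or 0.6%, against 2.04% of the 32064. These differences were not tested. The skipping reads pooled over exons between members made up 0.161% and 0.185% in KO and 0.140% and 0.134% in WT. Lat alone held 193 of these 420 reads, and without it the shares were 0.0720% and 0.123% in KO and 0.0612% and 0.0855% in WT, where the groups overlapped. For exons with no member beside them they made up 0.991% and 0.976% in KO and 1.02% and 1.05% in WT. A skipping junction in the first set also spans less of the genome, and what that does to its detection was not tested. After Lat came Dgkz, a diacylglycerol kinase, with 2 and 5 skipping reads in KO and 1 and 7 in WT.

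Other junctions that compete with a short one share 1 of its ends or span it. No such read was found for 1363 members, or 23.5%, and among the 2552 members with at least 100 reads the median share of competing reads was 1.10%. Summed member by member, competing reads made up 4.62% and 4.67% in KO and 4.80% and 4.79% in WT. A read that competes with several members was counted once for each of them, so these are not shares of distinct reads. Long putative junctions supplied many of them, since 867 of the 2552 reached 5% in some library with spanning junctions counted and 305 with only junctions that share an end, a narrower measure added after seeing the data. In Dync1h1, the heavy chain of cytoplasmic dynein, a putative junction of 51217 nt held 66 and 74 reads in KO and 124 and 143 in WT, and 7 of its 16 members lay under it with competing reads at 50% or more in all 4 libraries.

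Among members with at least 100 reads and a competing share of 5% or more in some library, the difference between the groups was largest in Abca2, a lipid transporter. Its junction at mm9 chr2:25298962-25299049 held 33 and 42 reads in KO and 14 and 16 in WT. Competing reads made up 29.8% (exact 95% interval 17.3 to 44.9%) and 30% (18.8 to 43.2%) in KO, against 65.9% (49.4 to 79.9%) and 61.0% (44.5 to 75.8%) in WT. Most of them lay on 1 putative junction of 10915 nt, with 12 and 16 reads in KO and 24 and 21 in WT. The use of the short junction stood at 1.30 (SE 0.52, adjusted p = 1.00), and among the 15 members of Abca2 the changes in use ran between -3.73 and 1.86. Ranbp2, a nuclear pore protein, showed the opposite at 2 junctions, with 35.1% and 40% in KO against 15.2% and 11.8% in WT at chr10:57926748-57926831 and 51.9% and 27.3% against 17.5% and 19.5% at chr10:57928329-57928411, mostly through 1 long putative junction. In BC037034 the competing junction shares an end, and its share was 45% and 15.4% in KO and 58.3% and 42.4% in WT, where the groups overlapped. Capn1, a calpain protease, completed the 5, with 3.45% and 36.8% in KO and 0.00% and 2.94% in WT.

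Only 8 of the members with at least 100 reads had end-sharing junctions at 20% or more in every library. They were found after their values were seen, and 5 of them compete mainly with a known junction. In Lck, the kinase that starts signalling at the T cell receptor, the short junction at mm9 chr4:129235434-129235532 held 97 and 100 reads in KO and 205 and 180 in WT. A known junction with the same acceptor and a donor 15325 nt upstream held 1194 and 960 reads in KO and 1767 and 2174 in WT, so that the short one was in the minority everywhere. Competing reads made up 91.5 ± 1.35% in KO and 91.0 ± 1.95% in WT (SD, n = 2 each), and the use of the short junction stood at -0.11 (SE 0.31, adjusted p = 1.00). Cnbp, a nucleic acid-binding zinc finger protein, chose between junctions of 99 and 120 nt, with competing shares of 34.1% and 34.7% in KO and 33.8% and 31.8% in WT. In Tmpo, which encodes nuclear lamina proteins, the shares were 30.8% and 28.8% in KO and 22.8% and 28.8% in WT.

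A special case was the choice between ends 3 nt apart, found after the values were seen. There were 12 such pairs of known junctions in 11 genes, 11 of them at the acceptor and 1, in Morc2a, at the donor. Acceptors of this kind repeat an AG at the intron's end, as the pairs of Arrdc1 (chr2:24926449-24926544 and chr2:24926446-24926544, minus strand) and Mrps10 (chr17:47372492-47372572 and chr17:47372492-47372575) show in GRCm38, where the longer intron of each pair carries 3 more bases.
Arrdc1 shorter: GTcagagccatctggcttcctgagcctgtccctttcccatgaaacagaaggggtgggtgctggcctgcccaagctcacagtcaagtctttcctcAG
Arrdc1 longer: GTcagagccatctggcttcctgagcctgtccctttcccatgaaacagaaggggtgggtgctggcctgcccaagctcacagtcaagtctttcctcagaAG
Mrps10 shorter: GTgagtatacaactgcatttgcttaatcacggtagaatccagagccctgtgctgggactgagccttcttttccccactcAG
Mrps10 longer: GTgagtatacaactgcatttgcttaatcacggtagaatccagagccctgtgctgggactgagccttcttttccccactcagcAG

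The balance between the ends differed from gene to gene. Arrdc1, an arrestin-domain protein, put 97.8% and 97.2% of the reads of its pair on the shorter junction in KO and 95.5% and 86.4% in WT. Mrps10, of the mitochondrial ribosome, put 60% and 79.2% there in KO and 75% and 68% in WT, from 15 to 25 reads per library. Setdb1, a histone methyltransferase, put 82.8% and 89.3% there in KO and 93.2% and 83.6% in WT, and the groups overlapped. Bub1, a kinase of the spindle checkpoint, favoured the longer one: the shorter took 38.3% (exact 95% interval 27.7 to 49.7%) and 41.9% (31.3 to 53.0%) in KO and 26.9% (19.6 to 35.2%) and 34.5% (26.8 to 42.7%) in WT. The Bub1 values did not overlap between groups, their intervals did, and the use of the shorter junction stood at 0.36 (SE 0.41, adjusted p = 1.00). Pgam5, a mitochondrial phosphatase, gave 56.5% and 33.3% in KO and 26.7% and 30.8% in WT, from 21 to 45 reads per library. Usp19, a deubiquitinase, gave 87.5% and 74.1% in KO and 79.2% and 84.4% in WT.

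**Figure D5:**
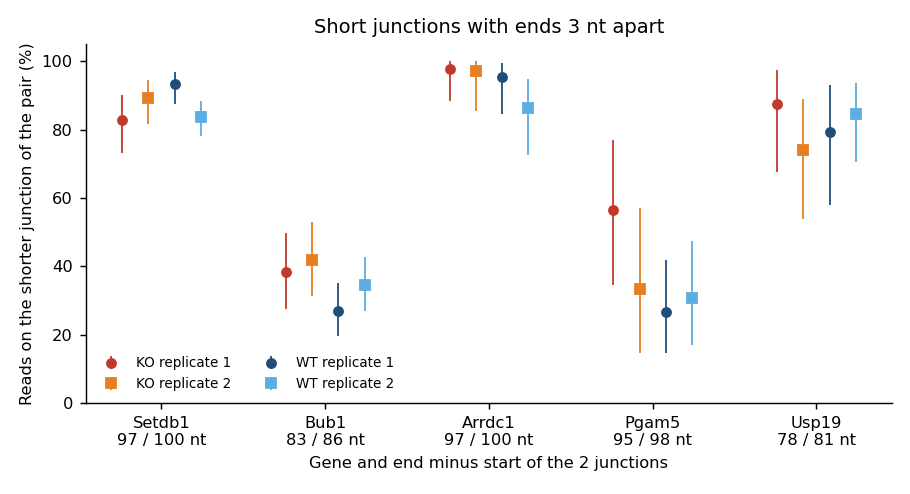
Share of reads on the shorter junction for the 5 pairs of known junctions with ends 3 nt apart and at least 100 reads, in percent, with exact 95% intervals for each library. The libraries lie between 26.9% and 41.9% in Bub1, between 86.4% and 97.8% in Arrdc1 and, more widely, between 26.7% and 56.5% in Pgam5.

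By function, the gene lists other than T cell genes held short introns at shares between 2.46% and 11.1% of their known junctions. The lowest share was that of MHC genes, 3 of 122, and the highest that of tubulins and actins, 4 of 36. Over all known junctions with at least 10 reads the share was 6.18%. Translation factors held 58 members in 26 genes with a median of 870 reads, and cytosolic ribosomal proteins 47 in 33 genes with a median of 676. SR proteins and hnRNPs held 21 in 16 genes, proteasome subunits 33 in 19, mitochondrial ribosomal proteins 29 in 21, RNA polymerase subunits 25 in 10 and the respiratory chain 20 in 14. None of these lists held a member that passed in use, and their medians of the change in use ran between -0.20 for mitochondrial ribosomal proteins and 0.10 for the 3 members of MHC genes.

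Factors that recognise splice sites, branch points or intronic G and CA runs were read from the gene counts. The list of 39 symbols repeats Srsf1, Srsf2 and Srsf3 under older names, and all 36 genes in it were tested. None passed, and the list's median was -0.02 on the log2 scale, against 0.01 for all 13733 genes. An unadjusted p under 0.05 was reached by 5 of the 36, or 13.9%, against 9.9% of all genes, and Hnrnpl itself is among the 5. Smndc1, a spliceosome assembly factor, had 22.5 and 28.7 gene CPM in KO and 14.5 and 17.99 in WT (log2 0.65, SE 0.18, edgeR adjusted p = 0.415). Sf1, which binds the branch point, had 125 and 141 in KO and 94.7 and 110 in WT, and Cherp, a component of the U2 particle, had 50.0 and 58.7 in KO and 35.1 and 46.6 in WT. U2af2, which binds the pyrimidine tract before the acceptor, had 126 and 122 in KO and 168 and 152 in WT (log2 -0.37, SE 0.12, edgeR adjusted p = 0.452), and the values of Hnrnpl are given above. Hnrnph1 had 230 and 214 in KO and 230 and 221 in WT, and its 3 members had changes in use of 0.50, 0.40 and -0.40. Rbm17, known in human cells for the splicing of short introns, had 52.2 and 62.4 in KO and 35.9 and 50.5 in WT (log2 0.41, SE 0.18, edgeR adjusted p = 0.502).

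At the limits of the rule, members of exactly 100 nt included Glb1l, with 10 and 4 reads in KO and 0 and 1 in WT, Pask with 1 and 1 against 1 and 7, and Pex3 with 60 and 52 against 62 and 92. Just outside, 1 nt longer, Ankzf1 had 6 and 13 reads in KO and 12 and 34 in WT, Dock10 45 and 54 against 63 and 94, and Cdc34 41 and 61 against 78 and 83. With 10 reads in all, Acadvl had 3 and 1 in KO and 5 and 1 in WT and Plxnb2 1 and 5 against 0 and 4, and with 9 reads Il17re, Phrf1 and Fam129c were left out.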

How the data were processed

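Total RNA of thymocytes from 2 hnRNP L KO and 2 wild-type mice was sequenced, with 69061265 and 75485061 mapped reads in KO and 99782558 and 122619310 in WT per the file headers. For each library the authors deposited raw read counts per exon-exon junction, marked known or putative with a gene symbol, and raw read counts per RefSeq transcript, which per the file headers take only primary alignments of mapping quality 10 or more. The deposited transcript tables also give, by the authors, a ratio of reads over length and RPKM values, scaled by length and mapped reads; RPKM was used for levels only and the ratio in no test. The build is mm9, per the submitters' processing notes. The sources used here name neither the aligner nor the strand setting.

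Junction use was tested on the 95139 known and putative junctions with at least 10 reads in genes with at least 2 of them, with diffSpliceDGE of edgeR 4.0.16 (R 4.3.3, robust quasi-likelihood fit, TMM scaling). Junction reads (93895 known junctions) and gene counts (13733 genes after the filter on low counts, the transcript with the most reads per symbol) were tested with edgeR's quasi-likelihood F test. Benjamini-Hochberg adjustment ran over each whole table, and 0.05 was the threshold. All changes are KO relative to WT. Coefficients of diffSpliceDGE, natural logarithms, were divided by the natural log of 2 to give log2 values. DESeq2 1.42.0 and limma-voom (limma 3.58.1) were alternatives. The ratio to the gene used a pseudocount of 0.5. Intervals are exact Clopper-Pearson at 95%; they and the limit of 3 reads for a count of 0 cover counting error only. Labels name separate mice, so p-values measure the spread between these 4 mice.

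Introns were matched to GENCODE M21 (GRCm38) by gene, strand, length and place in the gene, never by converting coordinates; no mm9 genome was used here. Named junctions follow rules: the 5 smallest p in each direction, the 10 most read, the 5 shortest, the 5 highest and lowest by ratio, the 5 largest differences in competing share, those at the limits and those in lists. Members, rules and lists were chosen with earlier results of these data known. Members on chromosome 18 (92) were analysed with the rest, and none is shown as sequence.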

Additional observations from a re-analysis of the deposited data

How the results depend on the processing

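For use of short junctions 0 members passed in all 4 libraries, with DESeq2 and with limma-voom; leaving out 1 library gave 0 to 1, the 1 without WT replicate 2 (10 of all junctions). For junction reads the count was 0, but 8 with a minimum of 2 reads (91 of all known junctions) and 2 to 25 when 1 library was left out: 2 without KO replicate 1 (25 of all), 4 without KO replicate 2 (73 of all), 3 without WT replicate 1 (50 of all) and 25 without WT replicate 2 (216 of all). For the genes that hold short introns it was 0, but 18 with DESeq2 (108 of all genes), 9 with no filter on low counts (62 of all) and 0 to 66 when 1 library was left out: 66 without KO replicate 1 (383 of all), 1 without KO replicate 2 (13 of all), 0 without WT replicate 1 (0 of all) and 3 without WT replicate 2 (40 of all). A fit without 1 library assumes that the lone sample varies like the other group. The median ratio of a short junction to its gene was 0.01 over the libraries, between 0.00 and 0.01 with 1 library left out, -0.28 (reversed in sign) against the mean of the other junctions and 0.24 with no minimum of reads for them; the cause was not tested.

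With the replicate number as a block, 8 members passed in junction reads (92 of all known junctions), 17 of their genes in gene counts (121 of all genes) and 0 in use (10 of all junctions). The deviations of the same-numbered libraries from their group means correlated at 0.04 over junctions and 0.26 over genes. With 2 libraries per group the deviations within a group mirror each other. Both same-numbered pairs therefore give the same value, and the crossed pairs give -0.04 and -0.26. The numbers thus do not establish a pairing. The Hnrnpl short junction passed with the block (log2 -1.67, adjusted p = 1.4e-05), with a minimum of 2 reads (-1.55, 1.8e-04), without KO replicate 1 (-2.53, 0.00106), without WT replicate 1 (-1.45, 0.0222) and without WT replicate 2 (-1.62, 0.00135). Depth limits single members, since the median member had 15 and 17 reads per library in KO and 20 and 27 in WT. The narrower measure of competing reads and the pooled skipping without Lat were chosen after seeing the data.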
